A study of Mus musculus with 6 samples.

Results

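Transcripts of 42 listed cell cycle and DNA replication genes were examined in the cochlea of mice that lack *Cmah*, the hydroxylase that makes the sialic acid Neu5Gc, and of wild type (WT) mice. Members were found by gene symbol in the normalized table, and the probe with the highest mean over the 6 arrays stood for each symbol. In this way 38 of the 42 symbols were measured, among 18138 gene symbols of the array. *Cdc2a* is the array's older name of *Cdk1*, and *Mki67*, *Aurkb* and *Cdk4* were not matched by symbol and are not analysed here. RNA came from 3 WT and 3 *Cmah*-null cochlear samples, all of C57BL/6 mice (C57BL/6J in the study's methods) that were 12 months old, with 1 Illumina MouseRef-8 v2 array per sample. The deposited tables name the second group old, and these columns were taken as the *Cmah*-null samples. Levels are log2 signals after the authors' quantile normalization, so a difference of 1 means a doubling of signal, and differences are *Cmah*-null minus WT. The sex of the mice and whether several animals were pooled in a sample are not given in the sources used here.

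A cell that divides passes from G1, when D-type cyclins and their kinases free E2F factors from the retinoblastoma protein, into S phase, when the MCM helicase opens DNA at replication origins. Mitosis follows, driven by Cdk1 with cyclins A and B and by the Aurora and Polo kinases, and ended by the anaphase-promoting complex. Cdk inhibitors of the Cip/Kip and Ink4 families hold these kinases in check. In the mature organ of Corti, hair cells and supporting cells do not divide, and *Cdkn1b*, *Cdkn2d* and *Rb1* are known to keep them out of the cycle. The bone around the inner ear holds marrow, where blood precursors keep dividing.

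On each array 13873 to 15223 of the 25697 probes were detected, meaning a detection p under 0.05 against negative control beads. Of the 38 measured members, 25 were detected on all 6 arrays, and 6 were detected on none (*Gmnn*, *Ccna2*, *Ccnb2*, *Bub1*, *Cdk6* and *Cdkn2a*). Of 23 cochlear marker genes, 22 were measured and 14 were detected on all arrays, while *Slc26a5* and *Pou4f3* of hair cells, *Tectb* and *Otor* were detected on none. The probe for *Cmah* was detected on 1 WT and 2 *Cmah*-null arrays, at 7.47 ± 0.34 and 7.73 ± 0.40 (SD, n = 3 each), and so gave no check of genotype. *Cmah*-null replicates 1 and 2 were the most alike of all arrays (SD of their log2 difference 0.14, and 0.39 to 0.85 for the other pairs), and *Cmah*-null replicate 3 lay farthest from the rest (0.76 to 0.85). Over probes detected on all arrays, the median squared difference relative to the squared bead error was 1.18 for *Cmah*-null replicates 1 and 2. It was 5.45 to 47.6 for the other pairs. The study's methods give 3 per group, and the labels do not say whether each sample was 1 animal, so p-values measure the spread between these samples, which may in part be technical.

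After Benjamini-Hochberg adjustment in limma, no member passed 0.05 (smallest adjusted p 0.397), and 0% of all probes did. At 1.5-fold with an unadjusted p under 0.05, no member was higher in *Cmah*-null mice, beside 1.3% of all probes. *Ccnd1* missed the rule at 1.49-fold (limma, unadjusted p = 0.0019). It passed with neqc normalization (difference 0.59), where 784 probes were higher by the rule, and with median scaling (1.09), where 2409 were. The inhibitors *Cdkn1b* and *Cdkn2c* were lower by that rule, beside 1.41% of all probes. No member was lower by it with median scaling of the arrays, where 79 probes were, or with the mean of all probes of a gene. Without the fold rule, *Ccnd1* alone was higher and the same 2 inhibitors lower at an unadjusted p under 0.05, beside 4.77% and 3.78% of all probes. The genotypes did not overlap for 1 higher member, *Ccnd1*, beside 9.11% of all probes, and for 3 lower members, *Cdc2a*, *Cdkn1b* and *Cdkn2c*, beside 7.33%. Over all measured members, 14 were higher and 24 lower, with a median difference of -0.09 against 0.002 over all probes. The signal of each member on each array is shown in the map of members by array, where the column of WT replicate 2 is high through the S phase and mitosis blocks.

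**Figure D1:**
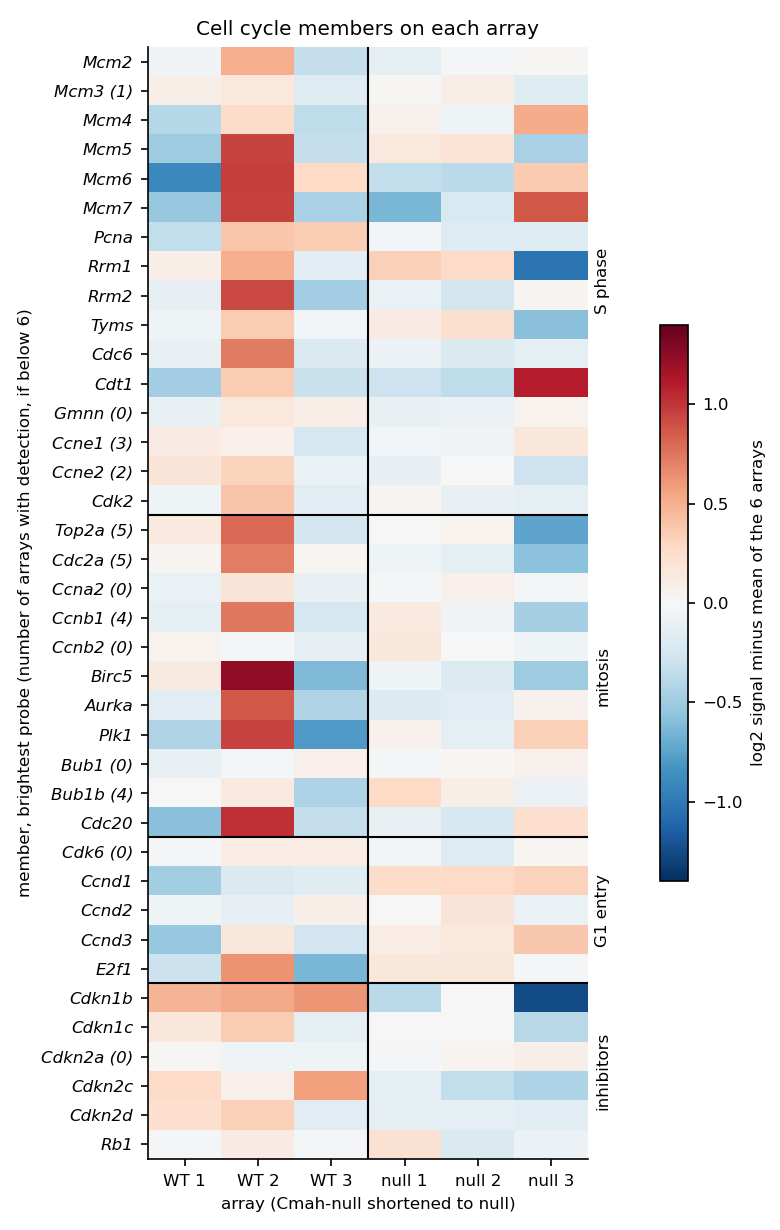
Log2 signal of each of the 38 measured members (rows, brightest probe) on each of the 6 arrays (columns), minus the mean of that member over the 6 arrays; a number in brackets gives on how many arrays a member was detected where that is below 6. Of the 16 S phase and mitosis members detected on all arrays, 14 were highest on WT replicate 2, and *Cdkn1b* and *Cdkn2c* were lower on every *Cmah*-null array than on every WT array.

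Promoters are printed for members that were high on WT replicate 2 (*Mcm5*, *Mcm6*, *Cdc20*, *Plk1* and *Birc5*) and for both inhibitors whose genotypes did not overlap, as examples chosen after their values and matches were seen. *Cdkn2c* has 2 annotated starts. The sequences were taken from RefSeq (GRCm38.p6), 250 bases before to 50 bases after the annotated start, read 5′ to 3′ on the strand of the gene, and 30 of the 38 measured members had such an entry. Capitals mark a match on either strand to an E2F motif (TTTCCCGC, TTTGGCGC, TTTCGCGC or TTTGCCGC), to the cell cycle homology region, CHR (TTTGAA or TTCGAA), or to the CCAAT box (CCAAT).
*Mcm5*, chr8:75109259-75109558, plus strand: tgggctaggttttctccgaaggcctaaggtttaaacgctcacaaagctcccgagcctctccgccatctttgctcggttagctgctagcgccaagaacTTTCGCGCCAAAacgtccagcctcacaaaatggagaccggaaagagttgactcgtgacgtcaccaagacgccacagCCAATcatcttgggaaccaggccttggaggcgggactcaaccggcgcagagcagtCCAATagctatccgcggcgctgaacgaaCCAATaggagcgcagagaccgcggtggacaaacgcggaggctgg
*Mcm6*, chr1:128359656-128359955, minus strand: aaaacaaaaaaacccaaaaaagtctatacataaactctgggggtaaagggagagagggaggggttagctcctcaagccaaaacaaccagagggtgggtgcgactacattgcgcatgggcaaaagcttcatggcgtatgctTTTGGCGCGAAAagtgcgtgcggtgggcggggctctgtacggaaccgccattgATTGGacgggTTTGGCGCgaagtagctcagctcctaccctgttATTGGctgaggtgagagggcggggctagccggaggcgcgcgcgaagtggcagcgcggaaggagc
*Cdc20*, chr4:118437294-118437593, minus strand: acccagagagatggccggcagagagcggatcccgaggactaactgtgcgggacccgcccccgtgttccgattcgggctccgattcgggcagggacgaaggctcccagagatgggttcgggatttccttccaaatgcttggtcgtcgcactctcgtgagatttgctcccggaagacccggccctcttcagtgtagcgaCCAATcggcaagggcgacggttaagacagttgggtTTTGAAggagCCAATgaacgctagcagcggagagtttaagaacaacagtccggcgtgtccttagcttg
*Plk1*, chr7:122159185-122159484, plus strand: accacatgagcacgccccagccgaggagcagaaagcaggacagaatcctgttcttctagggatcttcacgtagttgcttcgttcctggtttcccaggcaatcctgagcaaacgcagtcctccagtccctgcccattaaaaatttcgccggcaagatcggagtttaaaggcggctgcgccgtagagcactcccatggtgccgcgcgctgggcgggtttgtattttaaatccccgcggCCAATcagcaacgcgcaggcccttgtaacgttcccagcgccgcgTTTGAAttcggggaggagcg
*Birc5*, chr11:117848987-117849286, plus strand: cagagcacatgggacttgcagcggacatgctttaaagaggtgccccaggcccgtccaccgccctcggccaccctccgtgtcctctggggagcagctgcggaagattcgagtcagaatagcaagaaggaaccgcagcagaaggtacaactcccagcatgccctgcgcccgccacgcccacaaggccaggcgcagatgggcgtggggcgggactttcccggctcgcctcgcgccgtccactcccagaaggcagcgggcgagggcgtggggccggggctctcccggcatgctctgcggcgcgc
*Cdkn1b*, chr6:134920151-134920450, plus strand: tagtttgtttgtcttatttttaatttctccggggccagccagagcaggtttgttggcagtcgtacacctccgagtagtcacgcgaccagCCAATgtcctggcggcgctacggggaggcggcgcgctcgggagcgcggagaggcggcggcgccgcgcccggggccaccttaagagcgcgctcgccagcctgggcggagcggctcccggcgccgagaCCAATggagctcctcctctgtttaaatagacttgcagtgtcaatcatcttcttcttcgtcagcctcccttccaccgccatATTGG
*Cdkn2c*, start 1, chr4:109666707-109667006, minus strand: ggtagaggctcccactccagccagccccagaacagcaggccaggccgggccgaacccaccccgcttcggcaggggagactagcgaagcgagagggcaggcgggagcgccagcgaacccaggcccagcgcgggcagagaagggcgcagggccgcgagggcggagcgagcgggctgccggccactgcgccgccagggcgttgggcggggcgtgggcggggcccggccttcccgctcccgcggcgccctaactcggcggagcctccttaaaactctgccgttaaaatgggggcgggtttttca
*Cdkn2c*, start 2, chr4:109665323-109665622, minus strand: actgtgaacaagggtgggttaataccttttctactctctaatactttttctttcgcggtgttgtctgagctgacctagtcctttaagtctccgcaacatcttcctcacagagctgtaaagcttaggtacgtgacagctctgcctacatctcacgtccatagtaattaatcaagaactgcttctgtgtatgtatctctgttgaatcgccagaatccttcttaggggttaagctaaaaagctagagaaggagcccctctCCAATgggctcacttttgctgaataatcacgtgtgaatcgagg
The *Mcm5* window holds a pair of overlapping E2F matches in 1 run of capitals, and *Mcm6* holds 3 E2F matches. *Cdc20* and *Plk1* each hold 1 CHR match, and all 4 of these windows and that of *Cdkn1b* hold a CCAAT box. *Birc5* and the first start of *Cdkn2c* hold no match to any of the motifs, and the second start of *Cdkn2c* holds 1 CCAAT box. An E2F motif was found in 7 of 13 S phase members with an entry, in 1 of 10 mitosis members and in 2.6% of all 27025 genes of the promoter table. The CHR was found in 2 of the 13 S phase members, in 8 of the 10 mitosis members and in 21.7% of all genes. A CCAAT box was found in 9 of the 13 S phase members, in 9 of the 10 mitosis members and in 41.1% of all genes. Among the 4 inhibitors with an entry, an E2F motif was found in 1, the CHR in none and a CCAAT box in 4. These are matches of letters in the windows and were not tested for binding.

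S phase members are the replication enzymes and the factors that license origins. Of 16 measured, 12 were detected on all arrays, 12 were lower in *Cmah*-null mice and 4 higher, and the median difference was -0.11. It turned to 0.05 with median scaling of the arrays in place of quantile normalization. That scaling moved the median over all probes detected on all arrays from 0.03 to 0.30. The S phase median was -0.24 without WT replicate 1, -0.22 without WT replicate 3 and 0.06 without WT replicate 2. *Mcm5*, a subunit of the MCM helicase, had log2 signals of 9.70, 11.14 and 9.86 in WT replicates 1 to 3 and 10.34, 10.39 and 9.74 in *Cmah*-null replicates 1 to 3. WT replicate 2 was well above every other array, and the groups overlapped, with a difference of -0.08 ± 0.42 (SE; limma adjusted p = 0.970). *Mcm6*, of the same ring, had 9.06, 10.93 and 10.24 in WT and 9.62, 9.60 and 10.33 in *Cmah*-null mice. Its difference was -0.23 ± 0.50 (adjusted p = 0.918), and 2 further detected probes of the gene were also highest on WT replicate 2.

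*Mcm7* had 9.17, 10.66 and 9.24 in WT against 9.06, 9.48 and 10.57 in *Cmah*-null mice, so that 1 array of each genotype stood about as high. *Cdt1*, which loads the helicase onto origins, had 8.89, 9.74 and 9.07 against 9.09, 9.02 and 10.48. Both genes were high on *Cmah*-null replicate 3, which had the highest *Cdt1* signal of all. *Mcm4* had 11.07, 11.73 and 11.12 against 11.53, 11.41 and 11.99, and its difference of 0.34 ± 0.24 (adjusted p = 0.726) was the largest positive one among S phase members. *Mcm2* differed by -0.08 ± 0.22.

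Enzymes of nucleotide supply were also highest on WT replicate 2, though only *Rrm2* stood well apart there. *Rrm2*, the cell cycle regulated subunit of ribonucleotide reductase, had 7.90, 8.95 and 7.53 in WT and 7.92, 7.76 and 8.06 in *Cmah*-null mice. *Rrm1*, its partner subunit, had 9.40, 9.81 and 9.15 against 9.64, 9.58 and 8.28, and was lowest on *Cmah*-null replicate 3. *Tyms*, thymidylate synthase, had 8.17, 8.58 and 8.19 against 8.34, 8.45 and 7.64. Their differences lay between -0.29 and -0.17, with standard errors of 0.25 to 0.41, and none had an adjusted p below 0.865.

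*Cdc6*, which recruits the helicase to origins, had 7.66, 8.49 and 7.56 in WT and 7.68, 7.56 and 7.64 in *Cmah*-null mice. Apart from WT replicate 2, its arrays lay between 7.56 and 7.68. *Pcna*, the sliding clamp of DNA polymerases, had 7.45, 8.19 and 8.16 against 7.77, 7.62 and 7.62, a difference of -0.27 ± 0.21 (adjusted p = 0.752), and here WT replicate 1 was the low array. *Cdk2*, the kinase that cyclin E activates, had 10.91, 11.37 and 10.83 against 11.01, 10.87 and 10.85, a difference of -0.13 ± 0.16. The cyclins E themselves were near background. *Ccne1* was detected on 2 WT arrays and 1 *Cmah*-null array, and *Ccne2* on 2 WT arrays and no *Cmah*-null array. *Mcm3* was detected on 1 WT array only, and *Gmnn*, the inhibitor of Cdt1, on none.

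Mitosis members are the cyclins A and B with their kinase and the genes of spindle, checkpoint and anaphase. Of 11 measured, 4 were detected on all arrays (*Birc5*, *Aurka*, *Plk1* and *Cdc20*), and 3 on none. Over the 11, 6 were lower in *Cmah*-null mice and 5 higher, and the median difference was -0.07. That median was -0.32 without WT replicate 1, -0.25 without WT replicate 3 and 0.06 without WT replicate 2, and 0.02 with the bead number as a block. *Cdc20*, an activator of the anaphase-promoting complex, had 8.79, 10.39 and 9.04 in WT and 9.27, 9.15 and 9.60 in *Cmah*-null mice. *Plk1*, the Polo kinase, had 8.72, 10.08 and 8.34 against 9.19, 9.01 and 9.47. For both genes WT replicate 2 was the highest array and WT replicates 1 and 3 were the lowest, so that the *Cmah*-null arrays lay within the WT range.

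*Birc5*, the survivin subunit of the chromosomal passenger complex, had 8.90, 10.01 and 8.15 in WT and 8.71, 8.58 and 8.28 in *Cmah*-null mice. *Aurka*, a kinase of the spindle poles, had 8.40, 9.43 and 8.15 against 8.37, 8.41 and 8.62. The differences of these 4 genes lay between -0.50 ± 0.47 for *Birc5* and 0.18 ± 0.46 for *Plk1*, with adjusted p of 0.788 to 0.975. That of *Cdc20* was -0.07 ± 0.43, and it turned to 0.25 with median scaling, where the median over all probes detected on all arrays was 0.30.

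*Cdc2a*, the kinase that drives entry into mitosis, had 7.83, 8.51 and 7.82 in WT and 7.72, 7.65 and 7.22 in *Cmah*-null mice, where the last array was not detected. Every *Cmah*-null array lay below every WT array, with a difference of -0.52 ± 0.24 (adjusted p = 0.621; two-sided exact permutation p = 0.1, which is the least that 3 arrays against 3 can give). Its other 2 probes were detected on at most 1 array. *Top2a*, the topoisomerase that untangles sister chromatids, had 8.04, 8.70 and 7.65 against 7.91, 7.95 and 7.17, a difference of -0.46 ± 0.34 (adjusted p = 0.738). *Ccnb1*, cyclin B1, had 7.45, 8.30 and 7.32 against 7.71, 7.52 and 7.10, and was detected on 2 arrays of each genotype. *Bub1b*, of the spindle checkpoint, was also detected on 2 arrays of each, at 7.14 to 7.71 in WT and 7.49 to 7.86 in *Cmah*-null mice.

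WT replicate 2 stood apart in the S phase and mitosis members. Of the 16 detected on all arrays, 14 (87.5%) had their highest signal there, against 11.1% of all probes detected on all arrays. Over the 38 measured members the count was 24, against 13.7% of all probes. Relative to the mean of the other 2 WT arrays, WT replicate 2 was higher by a median of 0.73 over 12 S phase members, 1.48 over 4 mitosis members, 0.34 over 4 G1 members and 0.14 over 5 inhibitors, and the median over all probes detected on all arrays was -0.02. The gap was 1.55 for *Plk1*, 1.49 for *Birc5*, 1.48 for *Cdc20*, 1.45 for *Mcm7* and 1.36 for *Mcm5*. Among other replication and mitosis genes detected on all arrays, 23 of 46 (50%) were highest on WT replicate 2.

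Without WT replicate 2, the direction of many of these members turned. That array was singled out because S phase and mitosis members were high there, so leaving it out raises their differences by construction. The p-values and the overlap of groups without it carry that choice. Of the 12 S phase members, 9 had lower *Cmah*-null means and 3 higher ones with it, and 3 lower and 9 higher ones without it. Of the 4 mitosis members, 3 were lower and 1 higher with it, and 1 lower and 3 higher without it. The median difference over these members became 0.18 for S phase and 0.31 for mitosis, against 0.03 over all probes detected on all arrays. *Plk1* then differed by 0.70 ± 0.20 (limma, unadjusted p = 0.018, adjusted p = 0.960), *Cdc20* by 0.43 ± 0.18 and *Mcm4* by 0.55 ± 0.20. The adjusted threshold was passed by no member without it, and by 0% of all probes. At 1.5-fold with an unadjusted p under 0.05, 3 members were higher (*Plk1*, *Ccnd1* and *Ccnd3*), beside 0.743% of all probes, and the same 2 inhibitors were lower, beside 0.926%. The genotypes did not overlap for 7 higher members (*Mcm4*, *Ccna2*, *Plk1*, *Cdc20*, *Ccnd1*, *Ccnd3* and *E2f1*), beside 12.3% of all probes, and for the same 3 lower members, beside 10.2%. Of these, *Ccna2* was not detected on any array.

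Marker lists of marrow cells were also read on each array. Of 19 measured erythroid markers, 16 were highest on WT replicate 2, and 3 were detected on no array. Their summed signal, on the linear scale of the normalized table, was 145635 there, against 102827 and 99491 on the other WT arrays and 88626 to 102332 on the *Cmah*-null arrays. *Hba-a1*, at 15.99 to 16.04 on all arrays, made up 65169 to 67346 of each sum. Its signals, like those of *Ltf* below and of *Myl1* of muscle, were among the highest of all markers read. Whether signals at the top of the scale hide differences between arrays was not tested. Without *Hba-a1*, a choice made after seeing the data, the other 18 summed to 78990 on WT replicate 2, to 37117 and 32145 on the other WT arrays and to 22915 to 36621 on the *Cmah*-null arrays. The 20 neutrophil markers summed to 121434 on WT replicate 2, to 89511 and 87881 on the other WT arrays and to 95482 to 105845 on the *Cmah*-null arrays. Of the 20, 9 were highest on WT replicate 2, and 2 were detected on no array. *Ltf*, at 15.92 to 15.99, made up most of these sums, and without it they were 58058, then 24824 and 22711, and 31600 to 42679. Of 13 B cell precursor markers, 4 were detected on all arrays and 5 on none, and 4 were highest on WT replicate 2. The 13 summed to 3691 there, to 2991 and 2635 on the other WT arrays and to 2857 to 3493 on the *Cmah*-null arrays. Of 15 skeletal muscle markers, 7 were also highest on WT replicate 2. Their median gap to the mean of the other WT arrays was 0.51, against 1.03 for erythroid and 1.03 for neutrophil markers, each over those detected on all arrays. That gap was -0.36 for epidermal, -0.04 for cochlear and -0.25 for neuron and myelin markers. The part of any of these cells in the signals of the cell cycle members was not tested. In whole tissue, fewer cells of a type and less RNA per cell cannot be told apart. The plot of group medians by array sets the members beside the erythroid sum.

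**Figure D2:**
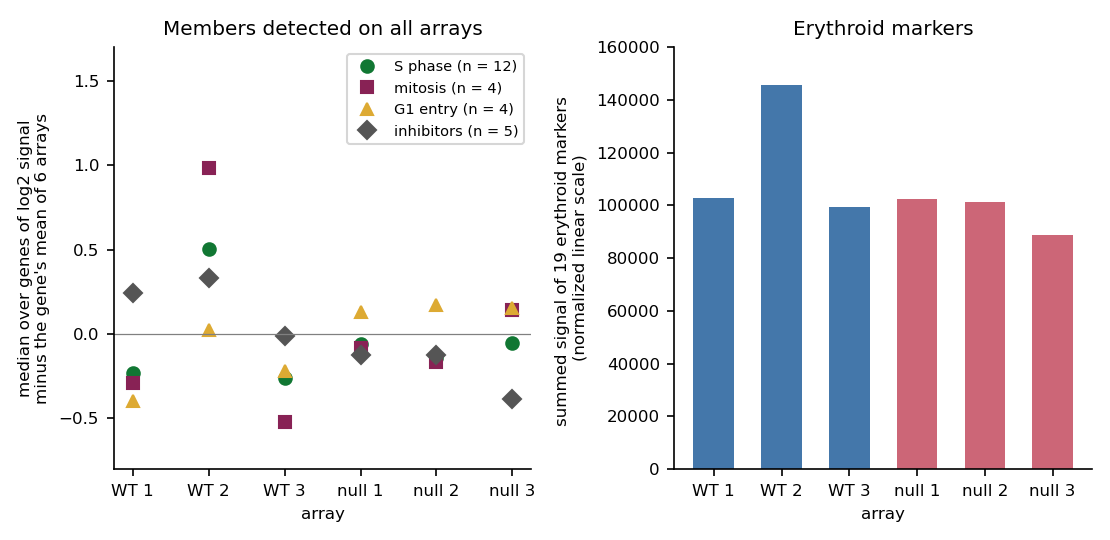
Left, median over the members detected on all arrays of the log2 signal minus the mean of that member over the 6 arrays, for 12 S phase, 4 mitosis and 4 G1 members and 5 inhibitors. Right, summed signal of 19 erythroid markers on each array, on the linear scale of the normalized table (blue bars, WT; red bars, *Cmah*-null). S phase and mitosis medians were highest on WT replicate 2, where the erythroid sum was 145635 against at most 102827 elsewhere, of which *Hba-a1* made up 65169 to 67346 on every array.

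G1 members start the cycle, and all 4 of those detected were higher in *Cmah*-null mice over the 6 arrays, although *E2f1* was at -0.07 without WT replicate 3 and *Ccnd2* at -0.01 without *Cmah*-null replicate 2. Over the 5 measured, 4 were higher and 1 lower, with a median difference of 0.20. *Ccnd1*, the cyclin D1 partner of Cdk4 and Cdk6, had 11.84, 12.13 and 12.16 in WT and 12.59, 12.61 and 12.66 in *Cmah*-null mice. The 3 *Cmah*-null arrays lay close together and above every WT array, among them the near-alike replicates 1 and 2. The difference was 0.57 ± 0.11 (SE, 1.49-fold; unadjusted p = 0.0019, adjusted p = 0.397 in limma; two-sided exact permutation p = 0.1).

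The 3 probes of *Ccnd1* gave different values. The second, whose 50 bases share 49 with the first and which is therefore no independent measurement, differed by 0.60 ± 0.13. The third was designed on another reference transcript of the gene and was detected on every array. It had 8.73, 9.36 and 9.68 in WT and 8.80, 9.18 and 9.40 in *Cmah*-null mice. Its difference was -0.13 ± 0.28 (adjusted p = 0.916), with groups that overlapped. Averaged over its 3 probes, *Ccnd1* differed by 0.35 ± 0.16.

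*Ccnd3*, cyclin D3, had 11.18, 11.86 and 11.44 in WT and 11.81, 11.86 and 12.08 in *Cmah*-null mice, a difference of 0.42 ± 0.19 (adjusted p = 0.616). The groups overlapped through WT replicate 2 alone, and without that array the difference was 0.61 ± 0.14 (adjusted p = 0.960). The other 2 probes of *Ccnd3* were not detected on any array. *Ccnd2*, cyclin D2, had 10.79, 10.74 and 10.93 against 10.86, 11.03 and 10.76, a difference of 0.06 ± 0.10. *E2f1*, the transcription factor that turns on S phase genes, had 9.67, 10.60 and 9.33 against 10.13, 10.13 and 9.96. Like the S phase genes it was highest on WT replicate 2, and its difference was 0.20 ± 0.32 with that array and 0.57 ± 0.14 without it. *Cdk6* was not detected on any array.

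Among the inhibitors, all 5 members detected were lower in *Cmah*-null mice (3 of them with median scaling). *Cdkn1b* and *Cdkn2c* alone lay outside the WT range on every *Cmah*-null array. *Cdkn1a* and *Cdkn2b*, of the same inhibitor families but not members, were higher and overlapped between genotypes. Their differences were 0.43 ± 0.24 and 0.25 ± 0.28 (adjusted p = 0.676 and 0.823 in limma). Over the 6 measured members, 1 was higher and 5 lower, with a median difference of -0.27. It came to -0.05 with median scaling, under which *Cdkn1c* turned to 0.24 and *Rb1* to 0.44. The median over all probes detected on all arrays was 0.30 under that scaling and 0.03 in the deposited values. *Cdkn1b*, which encodes the Cip/Kip inhibitor p27, had 9.46, 9.51 and 9.60 in WT and 8.61, 8.98 and 7.72 in *Cmah*-null mice. The WT arrays lay close together (SD 0.07) and the *Cmah*-null arrays were spread (SD 0.64), with replicate 3 the lowest. The difference was -1.09 ± 0.32, or 2.13-fold lower (unadjusted p = 0.015, adjusted p = 0.490 in limma; two-sided exact permutation p = 0.1). Without *Cmah*-null replicate 3 it was -0.73 ± 0.13, and averaging *Cmah*-null replicates 1 and 2 as 1 sample gave -1.27 ± 0.33. The gene's other 2 probes were not detected on any array, so that the value rests on 1 probe. With median scaling the difference was -0.75 ± 0.38 (unadjusted p = 0.084), and as the mean of all 3 probes -0.37 ± 0.12.

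*Cdkn2c*, which encodes the Ink4 inhibitor p18, had 10.01, 9.81 and 10.31 in WT and 9.60, 9.39 and 9.30 in *Cmah*-null mice. Every *Cmah*-null array was below every WT array, among them the near-alike replicates 1 and 2. The difference was -0.62 ± 0.15, or 1.53-fold lower (unadjusted p = 0.0076, adjusted p = 0.438 in limma; two-sided exact permutation p = 0.1), and it was under 1.5-fold without WT replicate 3 (-0.48) and without *Cmah*-null replicate 3 (-0.55). With median scaling it was -0.25 ± 0.26 (unadjusted p = 0.367), where the median over all probes detected on all arrays was 0.30. As the mean of its 2 probes, of which the other was not detected, it was -0.30 ± 0.10. The plot of cyclins and inhibitors shows these arrays for each probe.

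**Figure D3:**
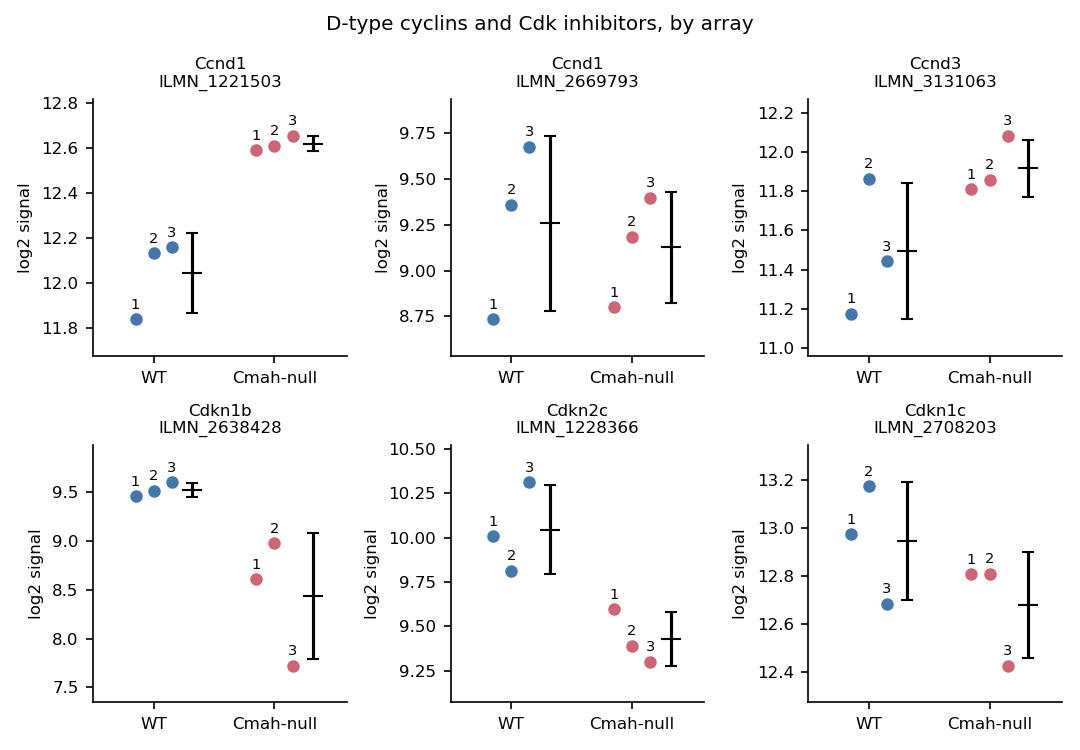
Log2 signal on each array (points, numbered by replicate; blue WT, red *Cmah*-null) with the mean and SD of the 3 arrays of each genotype, for 2 probes of *Ccnd1* and the brightest probe of *Ccnd3*, *Cdkn1b*, *Cdkn2c* and *Cdkn1c*; each panel has its own axis, which does not start at 0. The genotypes are apart for the brightest *Ccnd1* probe, *Cdkn1b* and *Cdkn2c* and overlap for the other *Ccnd1* probe (difference -0.13), *Ccnd3* and *Cdkn1c*.

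The other inhibitors overlapped between genotypes. *Cdkn1c*, which encodes p57 of the Cip/Kip family, had 12.97, 13.17 and 12.68 in WT and 12.81, 12.81 and 12.43 in *Cmah*-null mice, a difference of -0.26 ± 0.17 (adjusted p = 0.706). *Cdkn2d*, which encodes the Ink4 inhibitor p19, had 9.12, 9.21 and 8.72 against 8.76, 8.75 and 8.72, a difference of -0.27 ± 0.14 (adjusted p = 0.646), with WT replicate 3 as low as the *Cmah*-null arrays. *Rb1*, the retinoblastoma protein that binds E2F, differed by -0.05 ± 0.13, and its second probe by 0.05 ± 0.23. *Cdkn2a* was not detected on any array. Neuron and myelin markers (12 of 12) and skeletal muscle markers (14 of 15) also had lower *Cmah*-null means. Some of these differences were near 0 (*Mbp* -0.01, *Myh2* -1.2e-05), and 2 of the neuron markers were detected on no array. The neuron sum stood high on WT replicate 1 only, and the muscle sum of WT replicate 3 was below those of the *Cmah*-null arrays. The part of these tissues in the inhibitor values was not tested. The medians of the 5 detected inhibitors were -0.27 with WT replicate 2 and -0.18 without it, and those of the 4 detected G1 members were 0.31 and 0.59, as the plot of differences with and without that array shows.

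**Figure D4:**
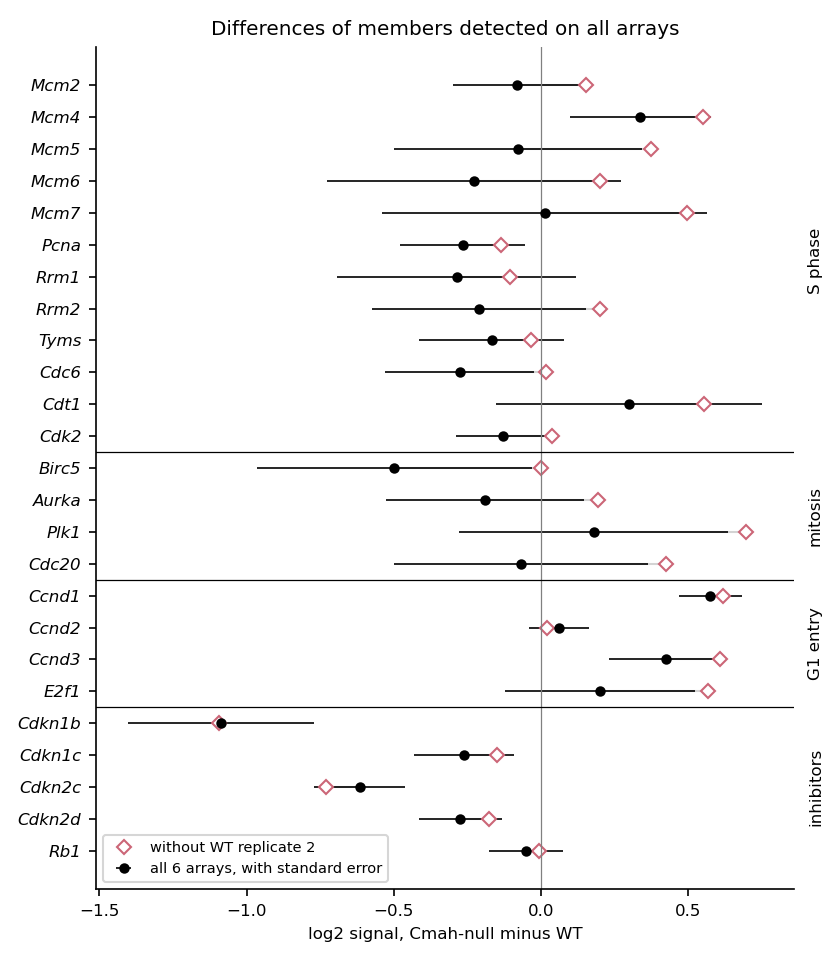
Log2 signal, *Cmah*-null minus WT, of the 25 members detected on all arrays: filled circles with bars give the limma estimate and its standard error over 6 arrays, and open diamonds the estimate without WT replicate 2. S phase and mitosis diamonds lie to the right of their circles by construction, since these members were high on that array. Of them, 9 of 12 and 3 of 4 lie above 0, while *Cdkn1b* and *Cdkn2c* stay at or below -0.62.

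Other genes of the cycle, taken from lists of replication, mitosis, G1 and inhibitor genes, were read in the same fit. Of 42 further replication genes, 40 were measured, 29 were lower in *Cmah*-null mice and 11 higher, and the median difference was -0.04. Of 55 further mitosis genes, 47 were measured, 13 were higher and 34 lower, and the median was -0.05. Among all measured, 20 of the replication and 28 of the mitosis genes were highest on WT replicate 2. Over those detected on all arrays, the median without that array was 0.145 for replication and 0.150 for mitosis. With it, these medians were -0.04 and -0.05. Of 29 further G1 and inhibitor genes, 25 were measured, 15 were higher and 10 lower, and the median was 0.03. Not 1 of these 112 genes passed the adjusted threshold. At 1.5-fold with an unadjusted p under 0.05, 1 was higher and none lower, beside 1.3% and 1.41% of all probes, so the count is not above that of the array as a whole.

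That gene was *E2f4*, an E2F factor that represses cell cycle genes in resting cells. It had 9.49, 9.02 and 8.91 in WT and 9.70, 9.89 and 9.93 in *Cmah*-null mice, and the groups did not overlap. The difference was 0.69 ± 0.17 (adjusted p = 0.433 in limma), and without WT replicate 3 no gene of these lists was higher by that rule. *Dut*, which removes dUTP ahead of replication, was 0.42 ± 0.12 higher (adjusted p = 0.497), with WT arrays at 8.67 to 9.02 and *Cmah*-null arrays at 9.10 to 9.37. *Cdc25b*, a phosphatase that activates Cdk1, had 8.11, 8.30 and 7.93 against 8.31, 8.33 and 8.92, a difference of 0.40 ± 0.20 (adjusted p = 0.640). *Cdc27*, a subunit of the anaphase-promoting complex, was lower by 0.15 with groups that did not overlap, and it was detected on 5 arrays.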

How the data were processed

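RNA of 3 WT and 3 *Cmah*-null cochlear samples was labelled and hybridized to 1 Illumina array each. The authors deposited intensity values (average bead signal, not background-corrected, with bead standard error and number of beads) and detection p-values. They also deposited log2 values, checked to equal quantile-normalized log2 intensities to within 5.0e-07. Columns named old were read as *Cmah*-null, and 12 repeated columns were not used. The deposited fold changes and test statistics were not used.

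The deposited log2 values were compared with limma 3.58.1 in R 4.3.3 (lmFit, eBayes, two-sided), with Benjamini-Hochberg adjustment over 25697 probes, and the code was tested on simulated data. Calls used an adjusted p under 0.05, or 1.5-fold with an unadjusted p under 0.05. All members, *Cmah* and, of the other lists, up to 4 genes higher and 4 lower with the largest differences among detected genes without overlap were named. *Cdkn1a* and *Cdkn2b* were named in addition, after their values were known. Members and lists were chosen with earlier results of these data known. Alternatives were neqc (offset 16), median scaling, detection on at least 3 arrays, replicate and bead number blocks, averaging *Cmah*-null replicates 1 and 2, leaving out each array, a trend and robust prior, and the mean of all probes. The number of arrays limits the precision.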

Additional observations from a re-analysis of the deposited data

How the results depend on the processing

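Of 350 recomputed differences of the 25 members detected on all arrays, 318 kept their direction and 32 reversed, and no member passed the adjusted threshold of 0.05 under any setting. By 1.5-fold with an unadjusted p under 0.05 calls did change: for example, *Plk1* (0.70) and *Ccnd3* (0.61) gained a call without WT replicate 2, *Mcm4* (0.85) with median scaling, and *Cdkn1b* (-0.75) and *Cdkn2c* (-0.25) lost theirs with median scaling. Under all 14 alternatives, *Ccnd1* (0.35 to 1.09), *Ccnd3* (0.23 to 0.92) and *Mcm4* (0.08 to 0.85) were higher. *Cdkn1b* (-1.63 to -0.37), *Cdkn2c* (-0.73 to -0.25), *Cdkn2d* (-0.42 to -0.04) and *Pcna* (-0.56 to -0.14) were lower under all of them. *Birc5* (-0.93 to -0.0006) also kept its sign, but its difference was near 0 without WT replicate 2.

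Median scaling moved the median of probes detected on all arrays from 0.03 to 0.30. It called 2409 probes higher and 79 lower, 3 members higher and 0 lower, and 5 other cell cycle genes higher. The G1 median was 0.58 and the inhibitor median -0.053. Under it 3 members were higher without overlap, and the share over all probes was not computed. It reversed *Mcm2* (0.17), *Mcm5* (0.33), *Mcm6* (0.18), *Rrm1* (0.067), *Tyms* (0.041), *Cdk2* (0.35), *Cdc20* (0.25), *Cdkn1c* (0.24) and *Rb1* (0.44). With neqc, 784 probes were higher and 698 lower, and 1 member was higher. With the bead number as a block, 3 probes passed the adjusted threshold, 855 were higher and 873 lower, 1 member was higher and 1 other gene lower, and *Mcm6* (0.15) and *Cdc20* (0.15) reversed. With the mean of all probes, 0 members were lower and *Cdc20* was 0.011. Same-numbered samples did not deviate together (correlations 0.02, -0.17 and 0.01), so the numbers were not taken as pairs. With the replicate block, 1 other gene was lower, as with the trend and robust prior, and no call of a member changed.

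Leaving out each array in turn gave 191 to 513 probes higher and 238 to 524 lower, 0 to 3 members higher and 1 to 2 lower, 0 to 2 other genes higher and 0 to 1 lower. Members without overlap numbered 1 to 7 higher (7 without WT replicate 2, beside 12.3% of all probes). They numbered 3 to 8 lower (8 without WT replicate 3, for which the share over all probes was not computed). With an array left out, groups fail to overlap more easily, so these counts cannot be read without that share. The S phase median ranged from -0.24 to 0.06, that of mitosis from -0.32 to 0.06, the G1 median from 0.10 to 0.57 and that of inhibitors from -0.41 to -0.16. Single differences that reversed ranged from -0.27 to 0.15 for *Mcm2*, -0.35 to 0.38 for *Mcm5*, -0.74 to 0.20 for *Mcm6*, -0.42 to 0.50 for *Mcm7*, -0.52 to 0.15 for *Rrm1*, -0.51 to 0.20 for *Rrm2*, -0.32 to 0.083 for *Tyms*, -0.45 to 0.017 for *Cdc6*, -0.17 to 0.55 for *Cdt1*, -0.23 to 0.036 for *Cdk2*, -0.45 to 0.19 for *Aurka*, -0.18 to 0.70 for *Plk1*, -0.38 to 0.43 for *Cdc20*, -0.014 to 0.12 for *Ccnd2*, -0.068 to 0.57 for *E2f1* and -0.17 to 0.039 for *Rb1*. Where a value changed with a setting, the cause was not tested. Signals near background limit the 13 members not detected on all arrays.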

Other observations

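Markers of other tissues of the dissection also differed between arrays. Epidermal markers summed to 35781 and 50715 on the linear scale on WT replicates 1 and 2, and to 136069 on WT replicate 3 and 117580 to 121777 on the *Cmah*-null arrays. Of the 16 measured, 15 had higher *Cmah*-null means, and the median log2 difference was 0.77. In limma 5 of them had an unadjusted p under 0.05 and 0 an adjusted p under 0.05. Skeletal muscle markers summed to 529651 and 536036 on the same 2 WT arrays, and to 323355 on WT replicate 3 and 350084 to 365176 on the *Cmah*-null arrays. Of the 15, 14 had lower *Cmah*-null means, among them *Myh2* at -1.2e-05. Neuron and myelin markers summed to 115237 on WT replicate 1, 57482 and 47616 on the other WT arrays and 51257 to 57946 on the *Cmah*-null arrays. All 12 measured had lower *Cmah*-null means, with a median of -0.17, and 2 of them were detected on no array. In limma 1, *Prph* (-1.37, adjusted p = 0.453), had an unadjusted p under 0.05. The part of these tissues in the values of *Ccnd1*, *Cdkn1b* and *Cdkn2c* was not tested.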
